A study of Mus musculus with 12 samples.

Results

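TRiC, also called CCT, is the chaperonin of the eukaryotic cytosol. Its 8 subunits are encoded by Tcp1, Cct2, Cct3, Cct4, Cct5, Cct6a, Cct7 and Cct8, and the genes described here are the rows of the deposited expression table whose Entrez ID maps to these symbols. All 8 were found among the 9842 genes of the table. RNA was sequenced from 12 libraries of B cells of female C57BL/6J mice, 3 in each of 4 groups. Unstimulated transitional B cells of the spleen, bearing B220 with CD93 but no Thy1.1, CD11b or F4/80, came from wild-type mice (TrB_WT) and from LSD1 knockout mice (TrB_KO). LSD1, encoded by Kdm1a, is a histone demethylase that removes methyl groups from lysine. Marginal zone B cells derived ex vivo came from enriched transitional B cells of wild-type (eMZB_WT) or LSD1 knockout mice (eMZB_KO) after 3 days with DL1, a Notch ligand, and BAFF, a B cell survival factor. They were sorted as B220+ CD21+ CD1d+ cells that lacked Thy1.1, F4/80 and CD11b. Each library used the RNA of 2000 cells. The labels do not say which allele or Cre line made the knockout, nor whether libraries of a group came from separate mice, so p-values measure the spread between these samples, which may be technical. Because culture and cell type change together, they cannot be told apart in the comparison of eMZB with TrB cells.

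In the assembled complex, 8 different subunits form each of a pair of stacked rings, which enclose a folding protein and close over it with ATP. Tcp1, Cct2, Cct4 and Cct5 lie on the side of the ring that binds and hydrolyses ATP more avidly, and Cct3, Cct6a, Cct7 and Cct8 lie on the other. Actin and tubulin are the classical clients, and several WD repeat proteins, such as the cell cycle regulator Cdc20, also need the complex to fold. Prefoldin delivers clients to it, and phosducin-like proteins act as its cofactors.

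The genes lie on 8 different chromosomes. In RefSeq coordinates of GRCm38.p6, the build known as mm10, Tcp1 spans chromosome 17 from 12916329 to 12925067 and Cct2 spans chromosome 10 from 117050997 to 117063852. Cct3 spans chromosome 3 from 88297135 to 88321766, Cct4 chromosome 11 from 22990593 to 23003336 and Cct5 chromosome 15 from 31590800 to 31601846. Cct6a spans chromosome 5 from 129787356 to 129846443, Cct7 chromosome 6 from 85451505 to 85468477 and Cct8 chromosome 16 from 87483325 to 87495869. The measured values cover whole genes, and the gene model and the handling of reads shared with processed copies elsewhere in the genome are not stated by the labels or files.

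Because most subunits moved together between the cell types, the letters just upstream of 4 of them are shown, as the parts of the 250 bases before the RefSeq start that lie outside annotated exons. Capitals mark matches, on either strand, to the GC box GGGCGG, the CCAAT box CCAAT or the ETS core CCGGAAG. Each sequence is from RefSeq, GRCm38.p6, on the gene's own strand: Cct2 at chr10:117063853-117064102 (minus), Cct3 at chr3:88297000-88297115 (plus), Cct7 at chr6:85451284-85451504 (plus) and Cct8 at chr16:87495874-87495998 (minus).
Cct2: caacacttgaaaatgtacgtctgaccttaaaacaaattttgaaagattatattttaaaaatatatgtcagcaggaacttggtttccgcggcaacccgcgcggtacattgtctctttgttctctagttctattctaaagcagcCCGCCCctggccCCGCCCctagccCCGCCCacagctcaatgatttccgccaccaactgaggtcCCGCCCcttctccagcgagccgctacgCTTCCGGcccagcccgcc
Cct3: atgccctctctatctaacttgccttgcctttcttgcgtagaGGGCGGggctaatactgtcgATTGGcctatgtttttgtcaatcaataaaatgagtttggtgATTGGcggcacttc
Cct7: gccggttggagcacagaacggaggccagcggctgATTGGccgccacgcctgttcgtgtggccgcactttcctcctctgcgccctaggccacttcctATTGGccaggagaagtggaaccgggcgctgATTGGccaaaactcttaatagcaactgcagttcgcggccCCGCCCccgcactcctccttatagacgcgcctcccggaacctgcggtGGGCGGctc
Cct8: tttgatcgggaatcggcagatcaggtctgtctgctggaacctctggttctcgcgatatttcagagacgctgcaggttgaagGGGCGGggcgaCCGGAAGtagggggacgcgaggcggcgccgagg

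The promoter table matched 7 of the 8 subunits; Cct4 was not among them. In the first 250-base window of each, the GC box occurred in 7 of 7 subunits and in 56.9% of windows of the listed genes. The Cct2 stretch holds 4 GC boxes, on the strand opposite to the gene. A CCAAT box occurred in 4 of 7 windows, those of Tcp1, Cct3, Cct6a and Cct7, against 36.4% of windows of the listed genes. The Cct7 stretch holds 3 of them. The ETS core occurred in 2 of 7 (Cct2 and Cct8) against 15.4%. The heat shock element TTCNNGAA occurred in 1 of 7 (Cct5) against 6.11%, and an E2F match, to TTTCCCGC or TTTGGCGC, in 1 of 7 (Cct3) against 2.62%. The E-box CACGTG, which Myc binds, and the YY1 motif AAGATGGC occurred in 0 of 7, against 8.65% and 2.19%. For Cct2 and Cct5 the table holds a second window further downstream, with 1 GC box for Cct2 and 0 for Cct5 and with neither the ETS core nor the heat shock element. With those in place of the first, the GC box occurred in 6 of 7, the ETS core in 1 of 7 and the heat shock element in 0 of 7. The GENCODE starts of Cct2 and Cct5 lie 38 and 42 bases downstream of the RefSeq starts used for the first windows. Counted the same way, with negative values upstream, those of Cct3, Cct7 and Cct8 lie at -19, 9 and -4 bases. Those of Tcp1 and Cct6a lie at -628 and -358 bases, upstream of the whole 250-base window. The windows of Tcp1 and Cct6a, which each hold a CCAAT box and a GC box, thus lie inside the gene as annotated by GENCODE. These are matches of letters in these windows, and no measurement here bears on binding.

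Kdm1a itself was checked first. Its scaled FPKM was 8.54, 7.93 and 3.47 in TrB_WT replicates 1 to 3 and 3.35, 2.56 and 2.99 in TrB_KO. It was 7.53, 8.63 and 4.68 in eMZB_WT replicates 1 to 3 and 2.65, 2.53 and 2.66 in eMZB_KO. The libraries labelled TrB_WT replicate 3 and eMZB_WT replicate 3 were thus the lowest of their groups, though all wild-type libraries exceeded the knockout libraries of their cell type. The Kdm1a difference was -0.87 on the log2 scale in TrB (SE 0.256, adjusted p = 0.249, limma) and -1.10 in eMZB (SE 0.256, adjusted p = 0.148). Without TrB_WT replicate 3 these were -1.22 (adjusted p = 0.0127) and -1.10 (adjusted p = 0.0113). Of the 12 fits that each left out 1 library, this was the only 1 in which Kdm1a passed, in either cell type. In the other fits of that kind the adjusted p reached 0.486 in TrB and 0.595 in eMZB. With TrB_WT, eMZB_WT and TrB_KO replicates 3 left out together, the difference was -1.23 in TrB (adjusted p = 0.00161, limma). In eMZB it was then -1.33 (adjusted p = 0.000372). That fit lacks the wild-type libraries of lowest Kdm1a. With only the groups compared, Kdm1a passed in eMZB (-1.10, adjusted p = 0.0301). Whether the counted reads include the deleted part of the gene is not stated by the labels or files.

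Values here are FPKM (fragments per kilobase of transcript per M, or mega, fragments of the library), divided by 1 scaling factor per library. Read totals recovered from the values ran from 7.24 to 19.3 M reads per library. The library labelled TrB_KO replicate 3 stood apart, with 61.6% of its reads in the listed genes against 16.7% to 41.7% in the other 11, with 285 listed genes at 0 and with a scaling factor of 2.14. Each subunit was backed by 266 to 2480 reads in each library. All 6 B cell markers were listed, 5 of them lower in eMZB than in TrB cells in each genotype, and 0 of 6 T cell markers were listed. Cd93, a sorting marker of TrB cells, was 5.002 ± 0.780 in TrB_WT and 0.873 ± 0.203 in eMZB_WT (SD, n = 3), and Cr2, which encodes CD21, was 8.77 ± 1.14 and 65.5 ± 4.90. Cd1d1, the gene of the sorting marker CD1d, differed little in wild type, at 22.3 ± 2.52 in TrB_WT and 22.8 ± 0.241 in eMZB_WT. It was 22.6 ± 0.243 in TrB_KO and 27.8 ± 2.90 in eMZB_KO. Of Cr2 and Cd1d1, 1 was called higher in eMZB cells in wild type and 2 in the knockout.

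All 8 subunits were expressed in every group, and their levels differed. Over all libraries Cct5 was the most abundant, ranking 280 of 9842 genes by mean scaled FPKM, and Tcp1 the least, ranking 1633. In TrB_WT the means were 41.1 for Cct5, 27.7 for Cct8, 22.8 for Cct2, 22.1 for Cct6a, 19.8 for Cct7, 19.2 for Cct3, 13.7 for Cct4 and 9.42 for Tcp1. Cct5 was the highest and Tcp1 the lowest subunit in all 12 libraries, with a ratio between them of 3.29 to 4.94. Cct8 came next to Cct5 in each group, though in eMZB_KO its libraries overlapped those of Cct6a. The libraries of Cct2, Cct6a, Cct7 and Cct3 overlapped between neighbours of that order in both TrB groups, so their places there are not told apart by these libraries. In eMZB cells Cct2 had the sixth mean, at 26.2 ± 1.85 in eMZB_WT and 29.7 ± 0.767 in eMZB_KO (SD, n = 3), and its libraries overlapped those of Cct3 in both groups and those of Cct4 in eMZB_WT. FPKM is per length, so this order rests on the gene lengths used, which the labels and files do not state. The lengths recovered from the values were longest for Tcp1 (4044 bases) and shortest for Cct5 (1769). By reads the order was another, and Tcp1 was the lowest subunit only in TrB_WT replicate 3 (286). Cct4 was the lowest in the remaining TrB libraries, with 266 against 270 for Tcp1 in TrB_WT replicate 1 and 335 against 413 in replicate 2. Cct2 was the lowest in every eMZB library, with 757 against 923 for Tcp1 in eMZB_WT replicate 1. The lowest place of Tcp1 thus rests on its length. The assembled complex holds its subunits in equal numbers, and the FPKM of their transcripts were not equal.

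**Figure D1:**
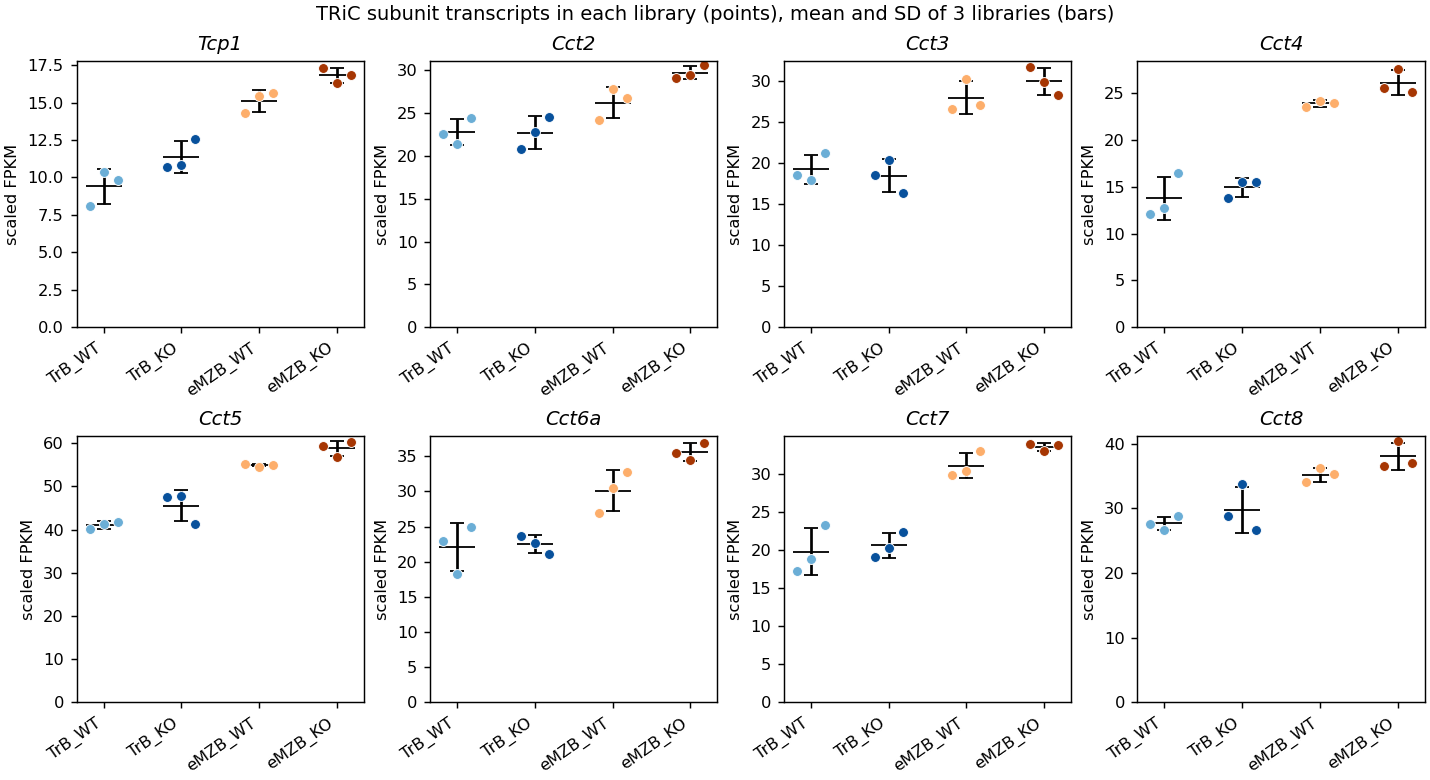
Scaled FPKM (vertical axis, from 0) of each TRiC subunit in the 4 groups; points are libraries, horizontal lines are group means and bars are SD of 3 libraries. All eMZB libraries lie above all TrB libraries for each subunit except Cct2, whose TrB libraries reach 24.5 and whose eMZB libraries start at 24.1.

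Ex vivo-derived marginal zone cells had more TRiC transcript than transitional cells, in wild type and in the knockout. In wild type 7 of 8 subunits rose, by 1.27-fold (Cct8) to 1.74-fold (Cct4) in mean scaled FPKM, and Cct2 did not pass the test at 1.15-fold. In the knockout 8 of 8 rose, by 1.28-fold (Cct8) to 1.75-fold (Cct4). Of all genes, 14.6% were called higher in wild type and 14.2% in the knockout (limma on log2 of scaled FPKM plus 1, Benjamini-Hochberg adjusted p under 0.05), and 10.1% in both. The median log2 change of the 8 subunits was 0.48 in wild type and 0.59 in the knockout, where the median over all genes was 0.00 and -0.01. For 7 of 8 subunits every one of the 6 eMZB libraries exceeded every one of the 6 TrB libraries, against 12% of all genes.

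On the more avid side of the ring, Cct4 had the largest log2 change, though differences in change between subunits were not tested. Its scaled FPKM was 12.1, 12.7 and 16.4 in TrB_WT and 23.5, 24.2 and 23.9 in eMZB_WT. This is a log2 change of 0.77 (SE 0.104, adjusted p = 0.000181). In the knockout it was 13.8, 15.5 and 15.5 in TrB_KO and 25.6, 27.6 and 25.1 in eMZB_KO, a log2 change of 0.77 (SE 0.104, adjusted p = 0.000183). No eMZB library overlapped a TrB library, and the log2 change was 0.77 in both genotypes. Tcp1, the founding member of the family, was 8.11, 10.3 and 9.81 in TrB_WT and 14.3, 15.5 and 15.6 in eMZB_WT, a log2 change of 0.64 (SE 0.0981, adjusted p = 0.000474). In the knockout Tcp1 was 10.7, 10.8 and 12.6 in TrB and 17.3, 16.3 and 16.9 in eMZB, a log2 change of 0.53 (adjusted p = 0.00174). The lowest eMZB library of Tcp1 stood at 14.3 and the highest TrB library at 12.6.

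Cct5 and Cct2, the other subunits of that side, had smaller changes. Cct5 was 40.1, 41.2 and 41.9 in TrB_WT and 55.2, 54.6 and 55.0 in eMZB_WT, a log2 change of 0.41 (SE 0.0723, adjusted p = 0.00121). Its 3 eMZB_WT libraries lay within 1 FPKM of each other, with a coefficient of variation of 0.590%. The counting error of these values was 2.01% to 3.73%, so this spread is below counting error and does not measure precision. In the knockout it was 47.6, 47.7 and 41.4 in TrB and 59.3, 56.8 and 60.3 in eMZB, a log2 change of 0.36 (adjusted p = 0.0027). Cct2 was 22.5, 21.4 and 24.4 in TrB_WT and 24.1, 27.7 and 26.7 in eMZB_WT, a log2 change of 0.19 with a 95% interval of 0.01 to 0.38 (SE 0.0862, adjusted p = 0.115). Here 1 eMZB_WT library, replicate 1, fell below the highest TrB_WT library. In the knockout Cct2 was 20.8, 22.7 and 24.5 in TrB and 29.1, 29.4 and 30.5 in eMZB, with no overlap and a log2 change of 0.38 (SE 0.0862, adjusted p = 0.00633). Whether the Cct2 change differs between genotypes is the interaction, which did not pass the test (0.18, 95% interval -0.08 to 0.45, adjusted p = 0.83).

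On the other side of the ring all 4 subunits rose in both genotypes. Cct7 was 17.3, 18.8 and 23.3 in TrB_WT and 29.9, 30.4 and 33.0 in eMZB_WT, a log2 change of 0.63 (SE 0.103, adjusted p = 0.000679), and 0.68 in the knockout (adjusted p = 0.000423). Cct3 was 18.6, 17.9 and 21.2 in TrB_WT and 26.5, 30.2 and 27.0 in eMZB_WT, a log2 change of 0.52 (SE 0.0988, adjusted p = 0.00214), and 0.67 in the knockout (adjusted p = 0.000326). Libraries of the 2 cell types were well apart for both genes. Cct6a, whose relative Cct6b is mainly a testis gene and was not among the listed genes, was 22.9, 18.3 and 24.96 in TrB_WT and 27.0, 30.5 and 32.8 in eMZB_WT. Its log2 change was 0.44 (SE 0.110, adjusted p = 0.0109) and in the knockout 0.64 (adjusted p = 0.00102). Cct8 was 27.7, 26.7 and 28.8 in TrB_WT and 34.1, 36.3 and 35.3 in eMZB_WT, a log2 change of 0.33 (SE 0.0885, adjusted p = 0.014), and 0.35 in the knockout (adjusted p = 0.0111). Cct8 was the subunit with the narrowest gap between cell types, 33.7 in the highest TrB library against 34.1 in the lowest eMZB library. Its call was lost in wild type without eMZB_WT replicate 2 (adjusted p = 0.0515) and in the knockout without eMZB_KO replicate 2 (adjusted p = 0.0526), and that of Cct6a in wild type without eMZB_WT replicate 3 (adjusted p = 0.051). On the FPKM as deposited, without scaling, 6 of 8 subunits were called in wild type and 0 of 8 in the knockout. Cct8 had an adjusted p of 0.0507 in wild type (limma). In the knockout all 8 changes were positive, 0.65 to 1.06, where the median over all genes was 0.23. On that scale 1779 of 9842 genes were called higher in wild type and 387 in the knockout. Leaving out TrB_KO replicate 3 as well gave 8 of 8 in each. There 7157 genes were called higher in wild type and 6497 in the knockout, with medians over all genes of 0.67 and 0.66.

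**Figure D2:**
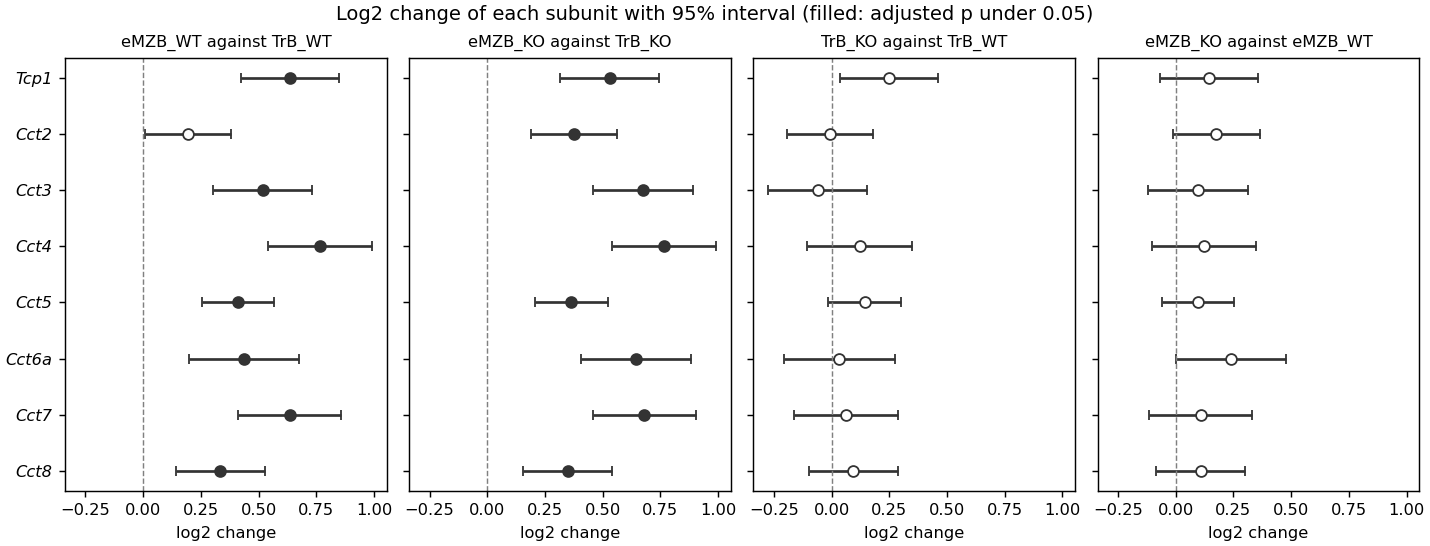
Log2 change (horizontal axis) of each subunit between the groups named above each panel, with the 95% interval from limma; filled points passed an adjusted p of 0.05. All subunits but Cct2 passed in the first panel and all passed in the second, and no subunit passed with LSD1 loss.

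Proliferation markers moved with the same groups. All 14 of 14 listed (such as Mki67, Pcna and the Mcm genes of the replicative helicase) were called higher in both cell type contrasts. Among TrB libraries their summed scaled FPKM was 67.4 to 85.3 for wild type and 86.3 to 99.1 for the knockout, and among eMZB libraries it was 129 to 145 and 152 to 164. Their part in the TRiC changes was not tested. Of 7 macrophage and monocyte markers 4 were listed, summing to 12.4 to 14.2 in TrB_WT and 13.004 to 23.0 in eMZB_WT. In TrB_KO they summed to 51.1 to 64.6 and in eMZB_KO to 50.6 to 58.4, and most of this was Ly6c2 (51.7 ± 7.30 and 49.1 ± 4.60, SD, n = 3). The defining markers Itgam and Adgre1, which encode CD11b and F4/80, had group means of at most 1.49 and 2.27. In wild type Ly6c2 was called higher in eMZB cells and Itgam (0.890 ± 0.122 in TrB_WT, 0.279 ± 0.0980 in eMZB_WT) and Adgre1 (2.27 ± 0.196 and 0.661 ± 0.193) lower, and in the knockout 0 of 4 were called. All 5 plasma cell markers were listed, summing to 31.8 to 53.6 in TrB_WT, 49.1 to 58.3 in eMZB_WT, 47.7 to 97.6 in TrB_KO and 34.4 to 41.8 in eMZB_KO. Prdm1 and Xbp1 were called higher in eMZB cells in wild type, and Sdc1 and Jchain lower in the knockout, where Jchain was 39.7 ± 20.7 in TrB_KO and 3.40 ± 2.42 in eMZB_KO. The part of these markers in the TRiC changes was not tested. Of 5 erythroid and 7 stromal markers, 1 each was listed, at group means of at most 2.41. In bulk RNA, fewer cells of a type and less RNA per cell cannot be told apart.

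The 8 subunits were also taken as 1 quantity, a share of the summed listed FPKM, which scales each library to its own sum. Together they held 0.175 ± 0.0114% (TrB_WT) and 0.183 ± 0.00499% (TrB_KO) of the listed FPKM. After culture they held 0.237 ± 0.0110% (eMZB_WT) and 0.262 ± 0.00306% (eMZB_KO) (SD, n = 3). The 6 TrB libraries ran from 0.166% to 0.189% and the 6 eMZB libraries from 0.225% to 0.265%, with no overlap. TrB_KO replicate 3, which stood apart in its share of reads in listed genes, had 0.182%, inside the range of its group. The make-up of the pool differed without overlap in 1 subunit: Cct4 supplied 7.15% to 8.61% of the summed subunit FPKM in the TrB libraries and 9.33% to 10.3% in the eMZB libraries. Cct2 supplied 12.95 ± 0.286% in TrB_WT and 10.7 ± 0.418% in eMZB_WT, and 12.2 ± 1.203% and 11.1 ± 0.280% in the knockout groups, where libraries overlapped. Cct5 remained the largest supplier, at 21.9% to 24.5% in group mean. These shares sum to a fixed whole, so a larger share of one subunit lowers the others.

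**Figure D3:**
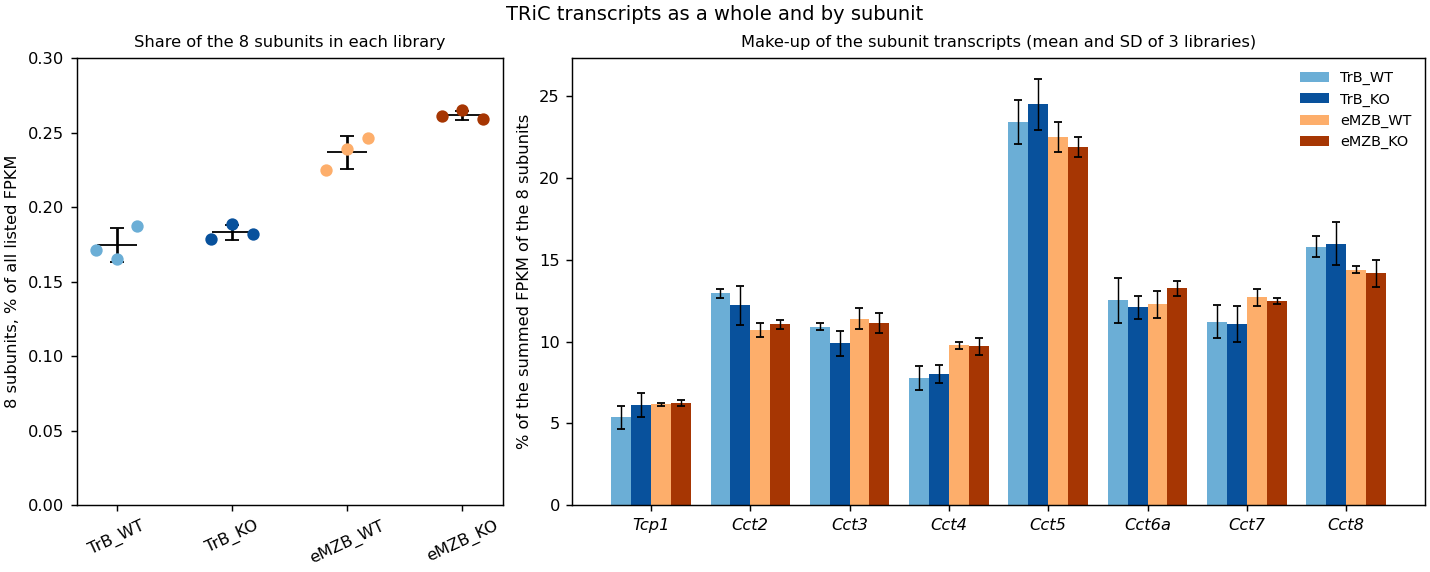
Left, the 8 subunits as a percentage of all listed FPKM in each library (points), with group mean and SD; right, the share of each subunit in their summed FPKM, bars for the mean and SD of 3 libraries. The eMZB libraries (0.225% to 0.265%) lie above the TrB libraries (0.166% to 0.189%), and the Cct4 share is higher in the eMZB groups.

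No subunit passed the test for LSD1 loss in either cell type. In TrB cells 0 of 8 were called, where 0.498% of all genes were (49 of 9842), and 1 of 8 had an unadjusted p under 0.05, against 975 genes. With voom on recovered reads 0 of 8 were called as well. Changes ran from -0.06 (Cct3) to 0.25 (Tcp1) with a median of 0.08. Tcp1 was the one subunit whose TrB_KO libraries (10.7, 10.8 and 12.6) all exceeded the TrB_WT libraries (8.11, 10.3 and 9.81), as did those of 6.14% of all genes, with a log2 difference of 0.25 (SE 0.0981, 95% interval 0.04 to 0.46, adjusted p = 0.402). Over the 8 subunits the 95% intervals reached from -0.28 to 0.46, so changes beyond that range lie outside the interval of each subunit. Cct2 was the flattest, at -0.01 (95% interval -0.19 to 0.18). The sign of Cct2, Cct3, Cct6a and Cct7 changed when single libraries were left out. Of the 14 proliferation markers 1 was called higher in TrB_KO; their part was not tested.

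In eMZB cells all 8 differences were positive, from 0.10 (Cct5) to 0.24 (Cct6a) with a median of 0.12, and 0 of 8 were called, where 0.406% of all genes were (40 of 9842); voom called 0 of 8 too. For 7 of 8, all but Cct3, the 3 eMZB_KO libraries lay above the 3 eMZB_WT libraries, against 9.13% of all genes. A positive difference was seen in 48.8% of genes. Cct6a was 27.0, 30.5 and 32.8 in eMZB_WT and 35.5, 34.4 and 36.9 in eMZB_KO, a log2 difference of 0.24 (95% interval 0.00 to 0.48, adjusted p = 0.921), and it alone had an unadjusted p under 0.05 (0.0495), as did 530 genes in all. Cct2 was 24.1, 27.7 and 26.7 in eMZB_WT and 29.1, 29.4 and 30.5 in eMZB_KO, a log2 difference of 0.18 (95% interval -0.01 to 0.36, adjusted p = 0.965). The subunits come from the same libraries and are not 8 independent readings of the genotype. The summed proliferation markers were also higher in every eMZB_KO library (152 to 164) than in every eMZB_WT library (129 to 145), with 0 of 14 markers called; their part was not tested.

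A response to LSD1 loss was not shown to differ between the cell types for any subunit. Interaction values, the eMZB response minus the TrB response, ran from -0.11 (Tcp1) to 0.21 (Cct6a) on the log2 scale, with adjusted p from 0.83 to 0.999, and 0 of 8 had an unadjusted p under 0.05 (0 of 8 called with voom). Among all genes 0.0102% (1 gene) were called. The 95% intervals of single subunits reached from -0.41 to 0.54.

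Partners and clients of TRiC were followed as lists, each set beside the share of all genes called (14.6% higher and 12.7% lower in wild type, 14.2% and 13.2% in the knockout). Tubulins rose in 9 of 12 listed genes in wild type and 9 of 12 in the knockout, and 0 fell; their median log2 change was 0.93 and 0.88. Tuba1b, a major alpha-tubulin, was 19.1 ± 2.75 in TrB_WT and 62.0 ± 4.62 in eMZB_WT (SD, n = 3), a log2 change of 1.65 (SE 0.101, adjusted p = 3.55e-07). Tuba1c rose by 1.36, and the beta-tubulins Tubb5 and Tubb4b by 1.24 and 1.21. Reads that the near-identical tubulin copies share could be split between them by the counting, so single tubulin values are uncertain. Of the actins, the other classical clients, 0 of 2 passed the test. Actb was 1215 ± 120 in TrB_WT and 976 ± 131 in eMZB_WT (log2 -0.32, adjusted p = 0.0694; 0.0277 when libraries were scaled to their sum, 0.0424 with voom, and 0.0187 or 0.0319 without TrB_KO replicate 3 or eMZB_WT replicate 2), and Actg1 differed by 0.04 (adjusted p = 0.733). On the FPKM as deposited the Actb change was 0.55, below the median of all genes on that scale (0.67).

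**Figure D4:**
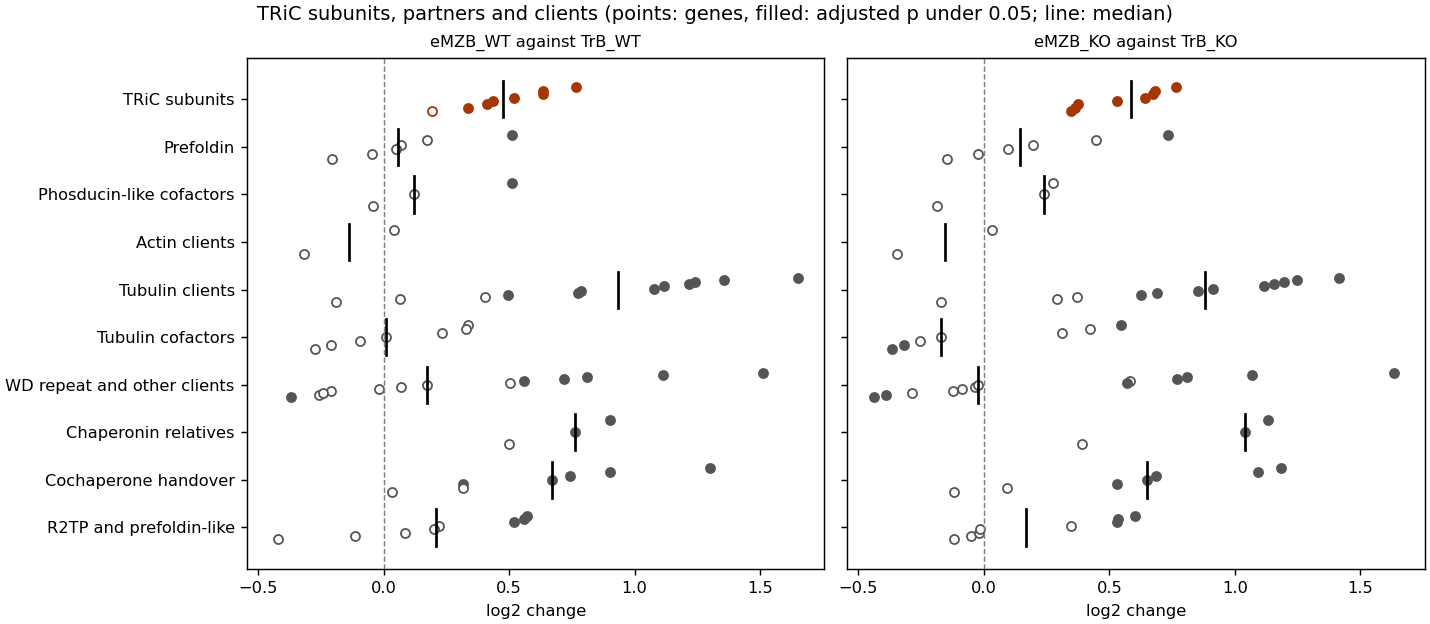
Log2 change (horizontal axis) from TrB to eMZB cells in wild type (left) and knockout (right); points are genes of each list, filled where the adjusted p was under 0.05, and lines are list medians. The tubulin medians of 0.93 and 0.88 lie to the right of those of the TRiC subunits, 0.48 and 0.59.

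Factors that bring clients to the ring or help them afterwards were followed as 3 lists. Of 6 prefoldin subunits 1 rose in wild type, Pfdn5 (28.6 ± 2.61 in TrB_WT and 41.2 ± 4.87 in eMZB_WT, log2 0.51, adjusted p = 0.0408), and 1 in the knockout; the median was 0.06 and 0.15. The others named by the rule were Pfdn1 (0.17), Pfdn6 (-0.21) and Vbp1 (0.05), with adjusted p from 0.383 to 0.725. The Pfdn5 call was lost in 8 of 12 fits that each left out 1 library, namely any TrB_WT library, eMZB_WT replicate 1 or 3, or any eMZB_KO library (adjusted p up to 0.137), and with voom (0.0686). Of 3 listed phosducin-like cofactors, Pdcl3 rose in wild type (0.51, adjusted p = 0.0271) and 0 of 3 passed in the knockout, while Pdcl (-0.04) and Txndc9 (0.12) did not pass. The Pdcl3 call was lost without TrB_WT replicate 1 or 2 or any eMZB_WT library (adjusted p up to 0.093), and with voom (0.0608). Of 7 tubulin cofactors, which assemble tubulin dimers after TRiC, 0 passed in wild type; in the knockout 1 rose and 2 fell. Those named by the rule were Tbcd (-0.28, adjusted p = 0.0869), Tbca (0.34, adjusted p = 0.192), Arl2 (0.33, adjusted p = 0.214) and Tbcb (0.23, adjusted p = 0.267), all in wild type. Of these, Arl2 passed without TrB_WT replicate 3 (adjusted p = 0.00521) and Tbca without TrB_KO replicate 1 (adjusted p = 0.0421). With TrB_WT, eMZB_WT and TrB_KO replicates 3 left out together, Arl2 (adjusted p = 0.0149) and Tbcb (adjusted p = 0.0393) passed.

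Of 13 listed WD repeat and other clients, 5 rose and 1 fell in wild type, and 5 rose and 2 fell in the knockout, with medians of 0.17 and -0.02. The mitotic kinase Plk1 rose by 1.51 on the log2 scale (0.882 ± 0.546 in TrB_WT, 4.22 ± 0.592 in eMZB_WT, adjusted p = 0.000152) and Cdc20 by 1.11 (adjusted p = 0.00401). The transcription factor Stat3 rose by 0.81 (adjusted p = 0.000436), and Rack1, a WD repeat protein of the ribosome, by 0.56 (adjusted p = 0.00537). Plk1 and Cdc20 are themselves genes of dividing cells, like the proliferation markers that moved with these groups. The mitochondrial chaperonin Hspd1 and its co-chaperonin Hspe1 rose by 0.90 (adjusted p = 1.1e-05) and 0.76 (adjusted p = 0.0041), and Mkks, a relative of the TRiC subunits, did not pass (0.50, adjusted p = 0.0911), though it did without TrB_WT replicate 3 (adjusted p = 0.00457) and without the same 3 libraries (adjusted p = 0.00375).

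The list of Hsp70 and Hsp90 chaperones and their cochaperones, which also holds the heat shock transcription factor Hsf1, had 7 genes; 5 rose in each genotype and 0 fell, with medians of 0.67 and 0.65. The genes that did not pass were Hsf1 and the Hsp40 gene Dnajb1. Hspa8, the constitutive Hsp70, was 41.1 ± 3.90 in TrB_WT and 102 ± 3.19 in eMZB_WT (SD, n = 3), a log2 change of 1.30 (SE 0.0764, adjusted p = 2.52e-07). The cytosolic Hsp90 genes Hsp90aa1 and Hsp90ab1 rose by 0.90 and 0.67, and the Hsp40 gene Dnaja1 by 0.74 (adjusted p = 0.00255). Of 8 genes of the R2TP and prefoldin-like assembly, 3 rose in each genotype and 0 fell, namely Ruvbl2 (0.57, adjusted p = 0.0161), Pdrg1 (0.56, adjusted p = 0.0165) and Ruvbl1 (0.52, adjusted p = 0.0303) in wild type, and Wdr92 did not pass (-0.42, adjusted p = 0.113). Those 3 calls depended on single libraries. Ruvbl1 was lost without TrB_WT replicate 1, eMZB_WT replicate 2 or 3 (adjusted p up to 0.0986) or with only the groups compared (0.0718), Ruvbl2 without TrB_WT replicate 2 or eMZB_WT replicate 3 (up to 0.068), and Pdrg1 without TrB_WT replicate 2, eMZB_WT replicate 1 or 3 (up to 0.0617). Wdr92 passed without TrB_KO replicate 1 (adjusted p = 0.0319) or with only the groups compared (0.0409). With LSD1 loss, 0 of the 61 genes of these lists were called in either cell type or in the interaction, by limma or by voom. An unadjusted p under 0.05 was seen in limma for 4 of them in TrB, 4 in eMZB and 0 in the interaction.

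Several subunit genes start back to back with another gene, and the library kit did not mark strand. Within 1000 bases of the start, on the opposite strand in the GENCODE annotation of the same build, lie Mrpl18 beside Tcp1 (starts 644 bases apart), Tsacc beside Cct3 (117), Fam173b, also named Atpsckmt, beside Cct5 (48), Psph beside Cct6a (451) and Pradc1 beside Cct7 (456). B130034C11Rik, a processed transcript that was not among the listed genes, lies beside Cct8 (126). Mrpl18, Psph and Pradc1 overlap their partner, so reads from the overlap cannot be told apart by gene. These neighbours were looked at after the subunit values were seen. Psph, an enzyme of serine synthesis, rose with Cct6a, by 0.93 in wild type (adjusted p = 0.00102) and 1.198 in the knockout (adjusted p = 0.000154). Mrpl18, of the mitochondrial ribosome, did not pass beside Tcp1, with 0.01 (17.8 ± 0.455 in TrB_WT and 17.9 ± 2.01 in eMZB_WT, adjusted p = 0.974) and 0.15 (adjusted p = 0.308). Tsacc (0.09 and 0.47), Atpsckmt (-0.19 and 0.24) and Pradc1 (0.19 and -0.06) did not pass in either genotype, at group means of 2.87 scaled FPKM or less.

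The genes whose profile over the 12 libraries was closest to the mean profile of the subunits were found by the root mean square difference of centred log2 values, among 3718 genes with group means of at least 5. They were Naca, Kars, Rbbp4, Pgam1, Eef2, Rpl4, Psap, Nme2, Pebp1 and Btf3, with differences of 0.0745 to 0.083 against a median of 0.31 for the genes ranked. The subunits themselves lay at 0.0942 (Cct3) to 0.139 (Cct4) from their own mean. Naca and Btf3 encode the nascent polypeptide-associated complex, Eef2 an elongation factor, Kars the lysyl-tRNA synthetase and Rpl4 a ribosomal protein. Rbbp4 and Pgam1, at places 3 and 4, and Psap, Nme2 and Pebp1 are not part of that description. Whether the 10 genes share a function was not tested. Naca was 6.50 ± 0.574 in TrB_WT and 9.63 ± 0.600 in eMZB_WT, and Rpl4 was 113 ± 7.14 and 175 ± 6.13 (SD, n = 3). The list was not stable: 6 of 10 genes stayed without TrB_KO replicate 3, and 2 of 10 when both labelled wild-type replicates 3 were left out with it.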

How the data were processed

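FPKM values, 1 per gene for each library, were deposited by the authors as 1 table of 9842 genes with Entrez IDs, each at 1 FPKM or more in at least 3 libraries. STAR and mm10 are named per the submitters' processing notes; the counting program, annotation and gene lengths are not stated there or in the labels. Per the labels' protocols, cDNA was made with SMART-Seq v4 and libraries with Nextera XT. Symbols were matched by Entrez ID (9833 matched, 9 not). FPKM was divided by median-of-ratios factors. limma 3.58.1 (R 4.3.3; lmFit, eBayes with trend) was fitted to log2(scaled FPKM + 1) for all 12 libraries and 4 group means, with 8 residual degrees of freedom and Benjamini-Hochberg adjustment over all genes. Fold changes on this scale understate those of low genes. Means, SD and folds in mean are of scaled FPKM. The members, lists and scaling were chosen with earlier results of these data known.

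Whole reads were recovered from the FPKM of 9842 of 9842 genes (100% within 0.02 reads), for depth and for a voom fit; the libraries carry no molecular identifiers, so several PCR reads can stem from 1 molecule and read numbers give counting error only. Squared differences within replicate pairs were 2.55 to 18.6 times those of counting noise (chi-square over degrees of freedom), so all were kept as separate samples. This does not show whether they share cells or RNA. Named genes were the 8 subunits, Kdm1a, up to 4 genes per partner or client list with the smallest adjusted p in the wild-type cell type contrast, and the 10 genes of most similar profile; the opposite-strand neighbours were added after values were seen. Further list members appear in counts and in the plot of partners and clients. Alternatives were another scaling or none, a pseudocount of 0.1, a mean of at least 5 scaled FPKM, voom, only the groups compared, a replicate block and leaving out libraries. Unscaled fits without TrB_KO replicate 3 were chosen after seeing the data. Labels number replicates 1 to 3 without saying what a number shares. Correlations of same-numbered deviations were all over 0.1 only for TrB_KO with eMZB_KO (0.161, 0.106 and 0.292). Replicate numbers served as a block only in alternative fits, of all 12 libraries or of only the groups compared. Those fits also paired groups whose correlations were not all over 0.1. Subunit values given here are from the fit without a block. The block changed no subunit call. The fits were tested on simulated data. Checks and plots used matplotlib 3.10.9, scipy 1.17.1, pandas 2.3.3 and numpy 2.4.6 in Python 3.11.15.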

Additional observations from a re-analysis of the deposited data

How the results depend on the processing

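The count of TRiC subunits called stayed at 7 of 8 (wild type) and 8 of 8 (knockout) between cell types, and at 0 with LSD1 loss and in the interaction, under every alternative except those named here. Leaving out single libraries gave 6 to 7 and 7 to 8. On deposited FPKM without scaling it was 6 and 0, with median shifts over all genes of 0.67 and 0.23 on the log2 scale (0.52 for LSD1 loss in TrB, 0.06 in eMZB, -0.46 for the interaction). Leaving out TrB_KO replicate 3 there gave 8 and 8, where 7157 and 6497 of 9842 genes were called higher.

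Genes called numbered 2693 (wild type), 2695 (knockout), 49 (LSD1 loss in TrB), 40 (in eMZB) and 1 (interaction). On deposited FPKM these were 1896 (1779 higher and 117 lower, against 1440 and 1253 with scaling), 460 (387 and 73, against 1398 and 1297), 19, 15 and 15; without TrB_KO replicate 3 as well, 7459, 6688, 17, 42 and 4. Of LSD1-loss calls, 77.6% in TrB and 82.5% in eMZB were higher with scaling, and 57.9% and 73.3% on deposited FPKM. With a mean of at least 5 they were 1634, 1723, 31, 23 and 0. Leaving out TrB_WT, eMZB_WT and TrB_KO replicates 3 together gave 2973, 3524, 123, 69 and 14. With only the groups compared, LSD1 loss gave 9 in TrB and 65 in eMZB, and voom gave 21 in TrB. Leaving out single libraries gave 1944 to 3407, 1977 to 3082, 26 to 54, 16 to 52 and 1 to 5. The cause of these shifts was not tested.

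With the replicate block in all 12 libraries, genes called were 2735, 2674, 39, 27 and 1, and with the block in only the groups compared 2850, 2452, 1 (LSD1 loss in TrB) and 46. No subunit call changed with the block or the pairing.

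Signs that turned belonged to changes not called with scaling. On deposited FPKM the median of all genes moves as given above (without TrB_KO replicate 3 by 0.67, 0.66, 0.08, 0.06 and -0.01 in the same order of contrasts), so where that shift is over 0.1 a sign turned there says nothing of the gene itself. On that scale, with and without TrB_KO replicate 3, wild-type cell type changes were 0.595 for Pfdn6, 0.689 for Pdcl, 0.552 for Actb, 0.475 for Tbcd, 0.223 for Wdr92 and 0.369 for Atpsckmt. Knockout changes there were 0.0721 and 0.50 for Kdm1a and 0.105 and 0.641 for Pradc1, and LSD1 loss in TrB gave 0.602 and 0.0253 for Cct2 and 0.539 and 0.103 for Cct3. Interaction values on deposited FPKM were -0.355 for Cct2, -0.372 for Cct3, -0.327 for Cct6a, -0.487 for Cct7 and -0.525 for Cct8, and without TrB_KO replicate 3 0.0174 for Cct4 and -0.0734 for Cct8. Of the signs that turned where the shift is smaller or scaling was kept, the cause was not tested. Without the 3 libraries together, values were -0.0263 for Kdm1a and -0.0226 for Pradc1 (wild type), 0.0588 for Pradc1 (knockout), 0.0878 for Cct3 (LSD1 loss in TrB), and -0.013 for Cct3 and -0.0842 for Cct8 (interaction). Scaling to the sum gave -0.0309 for Mrpl18 (wild type) and 0.0192 for Cct4 (interaction), and voom gave -0.017 for Kdm1a (wild type) and 0.0196 for Cct2 (LSD1 loss in TrB).

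Leaving out single libraries, wild-type cell type changes ran from -0.251 to 0.322 for Kdm1a, -0.0145 to 0.106 for Vbp1, -0.144 to 0.0764 for Pdcl, -0.00732 to 0.247 for Txndc9, -0.0128 to 0.112 for Actg1, -0.0772 to 0.0719 for Mrpl18 and -0.102 to 0.403 for Tsacc, and the knockout change from -0.179 to 0.0588 for Pradc1. LSD1 loss in TrB ran from -0.062 to 0.0533 for Cct2, -0.132 to 0.0177 for Cct3, -0.0888 to 0.125 for Cct6a and -0.0249 to 0.18 for Cct7, and the interaction from -0.127 to 0.0783 for Cct4, -0.0713 to 0.133 for Cct7, -0.0595 to 0.104 for Cct8 and -0.451 to 0.122 for Kdm1a. Each subunit had 266 reads or more per library, a counting error of 6.13% at most.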
